A study of Mus musculus with 6 samples.

Results

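The mRNA levels of 10 heat shock chaperone genes were examined in mouse intestinal tumor organoids that differed in Trp53, the gene for the tumor suppressor p53. The genes were Hsf1, Hsp90aa1, Hsp90ab1, Hspa8, Hspa1a, Hspa1b, Hsph1, Dnajb1, Hspb1 and Stub1, chosen for their known part in the stability of mutant p53 protein. Each has 1 row among the 36172 gene rows of the deposited table. Of the 10, 9 were among the 10042 genes that reached 4 rpkm (reads scaled to transcript length and to the library's mapped reads) in at least 1 of 6 libraries and entered the tests, while Hspa1a did not reach it.

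All organoids came from small intestinal tumors of C57BL/6 mice aged 15 to 20 weeks, and all carried the Apc(D716) allele, a truncation of Apc at codon 716, with loss of the other Apc copy (LOH). Trp53 +/+ organoids kept p53. Trp53 flox/flox organoids carried p53 alleles that act as null, and Trp53 R270H/R270H organoids (p53(M/M) in the labels) carried the missense change at codon 270 on both alleles. Each genotype had 2 libraries from 2 mice, whose organoids were prepared separately. In the mice of the R270H/R270H genotype the mutant allele was switched on by tamoxifen through villin-CreER, a recombinase driven in intestinal epithelium. Whether the other mice received tamoxifen is not given in the sources used here, so tamoxifen and genotype cannot be told apart. Poly(A) RNA was sequenced, so the measurements are of mRNA and not of p53 or chaperone protein.

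Heat shock proteins are chaperones that keep other proteins folded. Hsp90 and its co-chaperones hold client proteins, among them mutant p53, in a state that the ubiquitin ligases Mdm2 and Chip (the product of Stub1) do not degrade. Hsp70 proteins, fed by J-domain proteins such as Dnajb1 and aided by nucleotide exchange factors such as Hsph1, take up unfolded proteins and pass some of them to Hsp90. Some members of these families are made at all times, such as Hspa8 and Hsp90ab1, whereas others, such as Hspa1a and Hspa1b, are mainly induced by heat or other proteotoxic stress. The transcription factor Hsf1 drives that induction by binding heat shock elements, arrays of inverted GAA units.

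Stretches of promoter that hold paired GAA units are shown first, because the largest difference between genotypes was that of Hspa1b. They were taken from RefSeq on GRCm38.p6, which listed promoters of 6 of the 10 genes (Hspa1b, Hspa1a, Hsph1, Hspb1, Stub1 and Dnajb1) and not of Hsf1, Hsp90aa1, Hsp90ab1 or Hspa8. The Hspa1b and Hspa1a sequences end 1 base before the start site. The sequences run 5′ to 3′ on the gene's strand, and capitals mark the paired units.
Hspa1b, chr17:34959239-34959388, minus strand: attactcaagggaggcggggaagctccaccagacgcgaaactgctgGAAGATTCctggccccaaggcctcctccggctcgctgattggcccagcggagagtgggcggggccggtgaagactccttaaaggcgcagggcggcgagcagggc
Hspa1a, chr17:34972157-34972306, minus strand: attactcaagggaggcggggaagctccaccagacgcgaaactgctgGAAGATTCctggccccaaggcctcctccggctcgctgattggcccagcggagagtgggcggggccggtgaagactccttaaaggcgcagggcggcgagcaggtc
Hsph1, chr5:149636287-149636309, minus strand: tgctgcagaTTCTGGAAAGTTCt
Hspb1, chr5:135887797-135887834, plus strand: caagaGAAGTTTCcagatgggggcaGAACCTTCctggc
Stub1, chr17:25833025-25833049, minus strand: cgcggcgGAAGCTTCtcagagctaa

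The pair GAANNTTC or TTCNNGAA, which reads the same on both strands, was searched from 250 bases before to 50 bases after each start site. It stood in the promoters of 5 of these 6 genes, all but Dnajb1, against 17% of 27025 genes in the table. A run of 3 units (GAANNTTCNNGAA or TTCNNGAANNTTC, on both strands), which contains 2 overlapping pairs, stood only in Hsph1, at 37 bases after the first of its 2 listed start sites, against 0.662% of genes. A further pair in Hsph1, 33 bases before that start site, is not shown. These are matches of letters and not measured binding sites. The Hspa1b and Hspa1a windows differed at 1 of 150 bases, and their coding sequences, 1926 and 1923 bases long, were 98.23% identical over 1923 bases. By this likeness, 62.3% of the 50-base stretches of Hspa1b transcripts also occur in Hspa1a transcripts, and how the authors assigned such reads is not given in the sources used here.

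Trp53 mRNA set the flox/flox libraries apart, while those of R270H/R270H and +/+ overlapped. It stood at 75.9 and 74.3 rpkm in +/+, 1.73 and 2.48 in flox/flox, and 72.8 and 82.7 in R270H/R270H. Trp53 mRNA was lower in flox/flox than in +/+ (log2 fold change -4.63 ± 0.15 (SE), limma with Benjamini-Hochberg adjusted p = 0.00124). The R270H/R270H and +/+ libraries did not differ by that test in Trp53 mRNA (0.05 ± 0.15, adjusted p = 0.868).

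The 2 flox/flox libraries stood further apart from each other than those of the other genotypes. The median SD between replicates over all tested genes was 0.25 on the log2(rpkm + 1) scale in flox/flox, against 0.05 in +/+ and 0.06 in R270H/R270H, and over the 9 tested chaperone genes it was 0.21, 0.06 and 0.09. Genes on chromosome 5, which holds Hsph1 and Hspb1, had a median shift of 0.25 in flox/flox replicate 1 against -0.08 to -0.03 in the other libraries, over 657 genes. All 8 epithelial markers were present in every library, with a summed level of 2327 to 4557 rpkm. Ptprc, Cd3e and Emr1 among the blood markers, Pecam1 and Kdr of the 3 endothelial markers, and Col1a2, Col3a1, Lum and Des of the 8 fibroblast and muscle markers were at 1 rpkm, the lowest value in the table, in all 6 libraries. Acta2, a smooth muscle actin, was at 11.5 rpkm in flox/flox replicate 2 and at 1.00 to 1.59 in the others.

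In terms of rpkm, which is per length of transcript and so can be set side by side between genes, the 10 genes fell into 3 tiers in +/+ organoids. Hsp90ab1, the constitutive cytosolic Hsp90, led with 1972 ± 57.7 rpkm (mean ± SD, n = 2), followed by the constitutive Hsp70 gene Hspa8 with 1182 ± 30.4 and the inducible Hsp90 gene Hsp90aa1 with 441.0 ± 5.18. None of these 3 overlapped in +/+. Of the 50-base stretches of Hspa8 and Hsp90aa1, 67.3% and 50.1% also occur in other genes, against 4.13% for Hsp90ab1. Since the assignment of such reads is unknown, the order of these 3 may depend on it. A middle tier held Stub1 (28.2 ± 2.47), Dnajb1 (21.3 ± 0.953), Hsph1 (20.6 ± 1.41) and Hsf1 (13.8 ± 1.32). Within it the libraries of Dnajb1 and Hsph1 overlapped, so their order was not resolved. At or near the lowest value of 1 were the small heat shock protein gene Hspb1 (1.27 ± 0.375), Hspa1b (1.13 ± 0.00290) and Hspa1a (1.00 in both libraries).

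**Figure D1:**
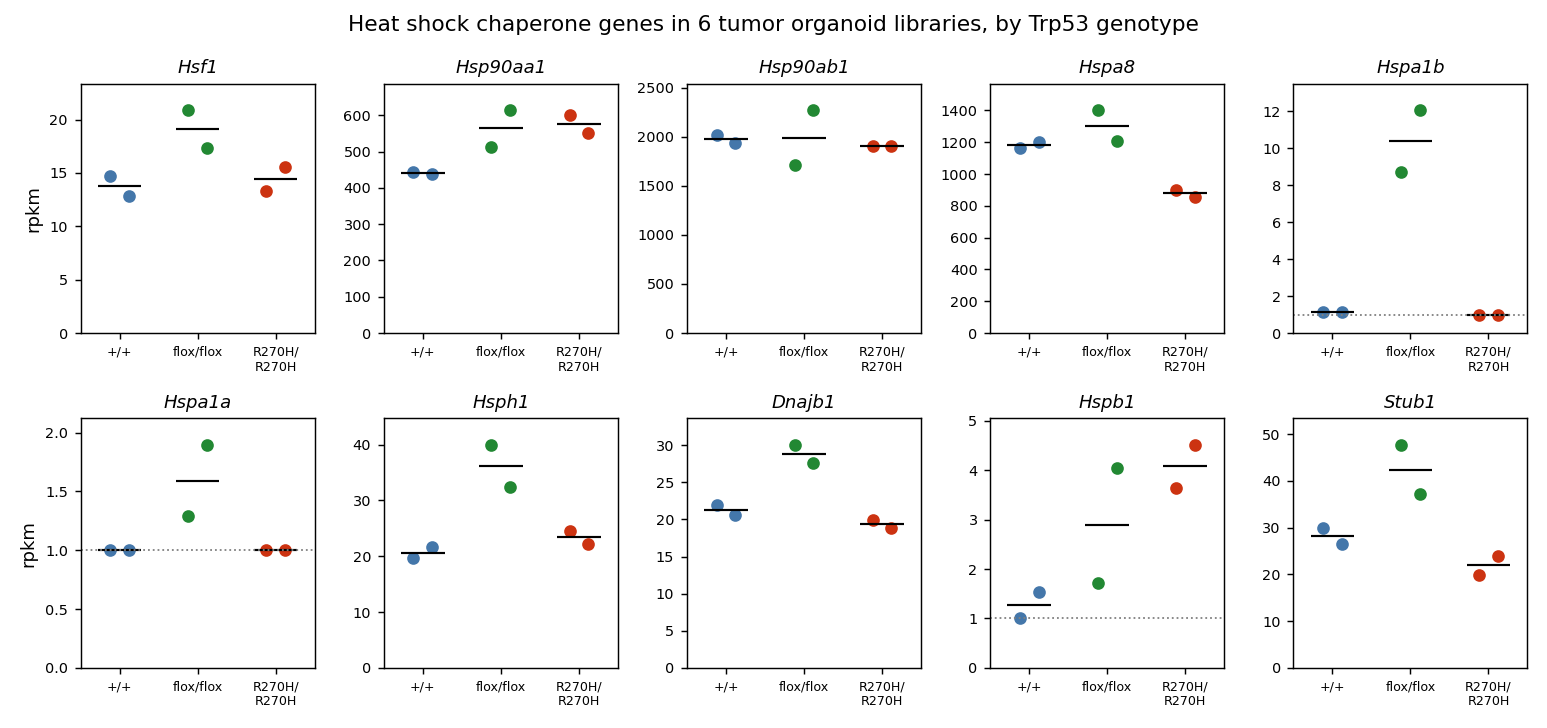
Levels in rpkm (y axes, from 0, scaled per gene) of the 10 chaperone genes in the 2 libraries of each Trp53 genotype (x axes), with points for libraries, bars for means and a dotted line at the table's lowest value of 1 where it is in reach. Hspa1b stood at 8.73 and 12.05 rpkm in flox/flox and at 1.00 to 1.13 in the other 4 libraries, and Hsp90aa1 was lowest in the 2 +/+ libraries.

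The first comparison asked how the chaperone genes differ between organoids with mutant p53 and those with wild-type p53. None of the 9 tested genes was called in R270H/R270H against +/+ by limma with a Benjamini-Hochberg adjusted p under 0.05, where 12.2% of all tested genes were called. The test was run on log2(rpkm + 1), which understates the change of genes with low levels. At an unadjusted p under 0.05 there were 3 of 9 (Hsp90aa1, Hspa8 and Hspb1), against 32% of all tested genes. The median log2 fold change of the 9 genes was -0.05, against 0.03 over all tested genes. That no gene passed does not show that the genotypes had equal levels, and the call depended on the flox/flox libraries. When only the 4 libraries compared were fitted, 4 chaperone genes were called, Hsp90aa1 (adjusted p = 0.00908) and Hspb1 (0.00340) higher and Hspa8 (0.00814) and Stub1 (0.0444) lower in R270H/R270H, while 57% of all tested genes were called in that fit. The same count of 4 was obtained without flox/flox replicate 1 or without flox/flox replicate 2 (57.8% of all tested genes each) and with a spread estimated per genotype (59.6%).

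The second comparison, of p53-null with wild-type organoids, called 2 of the 9 genes, Hspa1b and Hsph1, both higher in flox/flox, where 4.38% of all tested genes were called higher and 11.3% in either direction. Hspa1b reached the filter in flox/flox alone, and of the other 8 genes 1, Hsph1, was called. The median log2 fold change was 0.44 over the 9 genes and 0.43 without Hspa1b, against -0.02 over all tested genes. Leaving out Hspa1b, both flox/flox libraries lay above both +/+ libraries in 7 of 8 genes, the exception being Hsp90ab1, against 30.6% of all tested genes. Of these 7, Hspb1 reached the filter only outside +/+, so its place was partly set by the filter. The third comparison, which set mutant against null and shares the libraries of both others, called 5 of 9 genes, all lower in R270H/R270H, against 11% of all tested genes called lower and 24.6% in either direction. They were Hspa1b, Hspa8, Hsph1, Dnajb1 and Stub1, and without Hspa1b 4 of 8 were called. The median was -0.55 over the 9 genes and -0.46 without Hspa1b, against 0.03 over all tested genes. Fitted on the 4 libraries compared alone, the second comparison called none of the 9 genes (the lowest adjusted p was 0.0519, for Hspa1b) and 0.468% of all tested genes. The third called 1 of the 9, Hspa1b, and 3.76% of all tested genes. Leaving out any 1 of the 4 +/+ and R270H/R270H libraries gave these same counts, 0 in the second comparison and 1 in the third. In those fits 0.08% to 0.42% of all tested genes were called in the second comparison and 1.65% to 3.82% in the third. Without flox/flox replicate 1 the counts were 5 and 5, where 41.9% and 54% of all tested genes were called, and without flox/flox replicate 2 they were 5 and 7, where 69.3% and 72.8% were called.

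**Figure D2:**
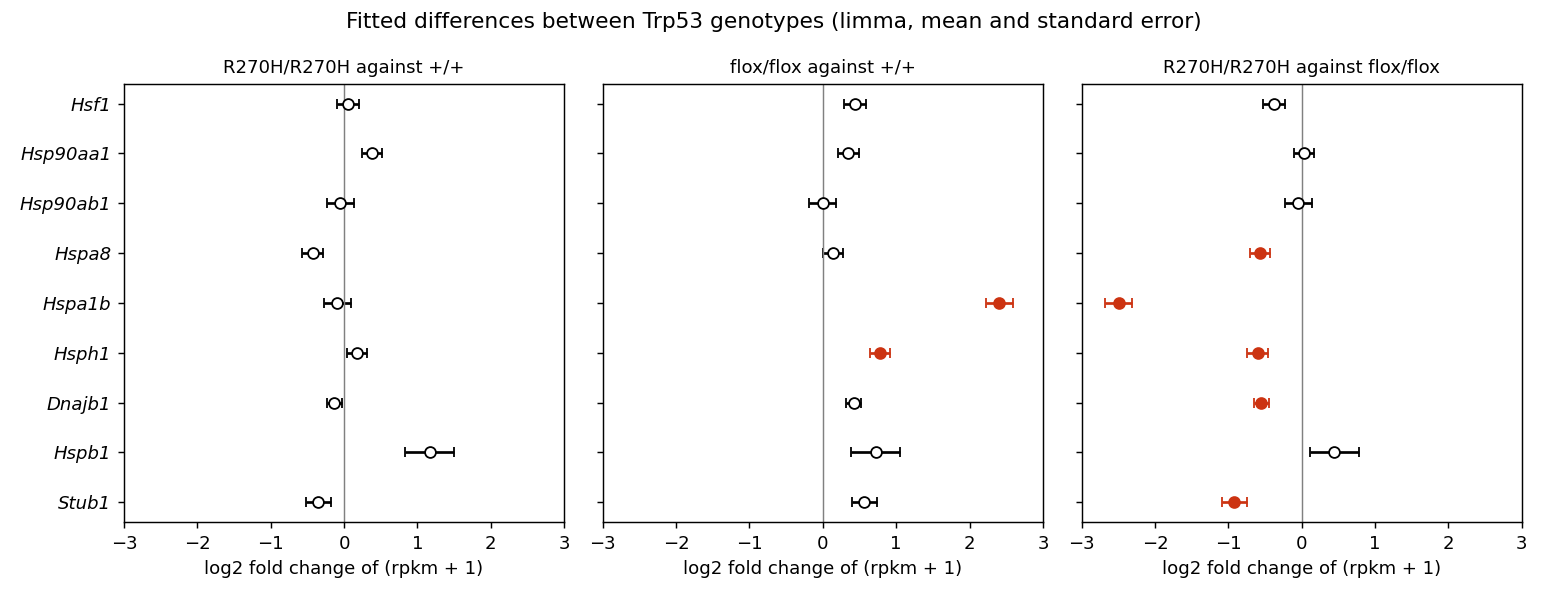
Fitted log2 fold change of (rpkm + 1) with its standard error (x axes) for the 9 tested chaperone genes (y axis) in the 3 comparisons of Trp53 genotypes, with filled red points for an adjusted p under 0.05. No gene is filled for R270H/R270H against +/+, 2 are filled to the right for flox/flox against +/+, and 5 are filled to the left for R270H/R270H against flox/flox.

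Hspa1b encodes an inducible Hsp70 that is low in unstressed cells, and lies at chr17:34956436-34959238 on the minus strand (GRCm38, GENCODE M21). It was at 1.13 rpkm in both +/+ libraries, 8.73 and 12.05 in flox/flox, and at the lowest value of 1 in both R270H/R270H libraries. The flox/flox pair stood clear of the other 4 libraries. Its mean was 9.20-fold that of +/+ (log2 fold change 2.40 ± 0.18 (SE), limma adjusted p = 0.00660) and at least 10.4-fold that of R270H/R270H, where values below 1 are not shown (-2.49 ± 0.18, adjusted p = 0.00283). Since the gene entered the test through flox/flox alone, it could hardly enter without a difference. It was called against R270H/R270H under all 19 alternatives tried (adjusted p = 0.000115 to 0.0457) and against +/+ under 14 of 19, the highest adjusted p being 0.114 without +/+ replicate 2. A level of 1 rpkm corresponds to about 124 reads of this transcript at the lowest depth estimated.

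Hspa1a, its near copy at chr17:34969190-34972156 on the minus strand, was at 1.29 and 1.89 rpkm in flox/flox and at the lowest value in the other 4 libraries. It was not tested. With the rpkm of the 2 genes added, the sum was 2.13 in both +/+ libraries, 10.02 and 13.9 in flox/flox, and 2.00, the lowest sum possible, in both R270H/R270H libraries. The summed pair was called in both comparisons with flox/flox (adjusted p = 0.00883 and 0.00413). Like Hspa1b, the sum reached the filter in flox/flox alone, so these calls were largely set by the filter and add no support.

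The constitutive Hsp70 gene Hspa8 lies at chr9:40800984-40810087 on the plus strand. It was at 1161 and 1204 rpkm in +/+, 1401 and 1209 in flox/flox, and 901.0 and 856 in R270H/R270H. The 2 R270H/R270H libraries were below the other 4. Both flox/flox libraries were above the other 4, replicate 2 only narrowly (1209 against 1204 rpkm in +/+ replicate 2). The mean was 1.49-fold higher in flox/flox than in R270H/R270H (log2 fold change -0.57 ± 0.14, adjusted p = 0.0410). Against +/+ the difference was -0.43 ± 0.14 (adjusted p = 0.108). Of the 50-base stretches of Hspa8 transcripts, 67.3% also occur in other genes, chiefly the processed pseudogene Gm15459, which was listed at 78.2 and 82.7, 87.6 and 86.5, and 61.0 and 57.7 rpkm in the same order. The pseudogene was therefore lowest in the same 2 libraries as Hspa8, and reads from the shared stretches cannot be told apart.

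Hsph1, a nucleotide exchange factor of the Hsp110 family that also binds unfolded proteins, lies at chr5:149614287-149636376 on the minus strand. It was at 19.6 and 21.6 rpkm in +/+, 39.9 and 32.4 in flox/flox, and 24.6 and 22.3 in R270H/R270H. Both flox/flox libraries were the highest of the 6. The flox/flox mean was 1.75-fold that of +/+ (log2 fold change 0.78 ± 0.14, adjusted p = 0.0332) and 1.54-fold that of R270H/R270H (-0.60 ± 0.14, adjusted p = 0.0364). With every library centred on its own chromosome medians, which takes out the shift of chromosome 5 in flox/flox replicate 1, the differences were 0.60 (adjusted p = 0.0330) and -0.46 (adjusted p = 0.0377). Without that library they were 0.63 (adjusted p = 0.00734) and -0.45 (adjusted p = 0.0140). Leaving out any 1 of the 4 +/+ and R270H/R270H libraries ended both calls, with adjusted p up to 0.263 and 0.194.

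Dnajb1, the J-domain protein Hsp40 that delivers substrates to Hsp70, lies at chr8:83608193-83612653 on the plus strand. Its levels were 22.0 and 20.6 rpkm in +/+, 30.0 and 27.7 in flox/flox, and 19.9 and 18.9 in R270H/R270H. The genotypes did not overlap. It was lower in R270H/R270H than in flox/flox (log2 fold change -0.55 ± 0.10, adjusted p = 0.0223), whereas flox/flox against +/+ gave 0.42 ± 0.10 (adjusted p = 0.0593). Stub1, which encodes the ligase Chip that ubiquitinates chaperone clients, lies at chr17:25830505-25833404 on the minus strand. It was at 29.9 and 26.4 rpkm in +/+, 47.7 and 37.1 in flox/flox, and 20.0 and 23.9 in R270H/R270H. As with Dnajb1, flox/flox was highest and R270H/R270H lowest with no overlap, and Stub1 was lower in R270H/R270H than in flox/flox (-0.92 ± 0.17, adjusted p = 0.0219) but not called in flox/flox against +/+ (0.56 ± 0.17, adjusted p = 0.0875). The calls of Hspa8, Hsph1, Dnajb1 and Stub1 against flox/flox held under 10, 11, 12 and 13 of 19 alternatives.

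The 2 cytosolic Hsp90 genes did not follow these orders. Hsp90aa1, at chr12:110690605-110702728 on the minus strand, was at 445 and 437 rpkm in +/+, 514 and 614 in flox/flox, and 601 and 552 in R270H/R270H. Both mutant genotypes lay above +/+ in each library and overlapped each other. The mean was 1.31-fold that of +/+ in R270H/R270H (log2 fold change 0.38 ± 0.14, adjusted p = 0.131) and 1.28-fold in flox/flox (0.35 ± 0.14, adjusted p = 0.145), and neither was called. Of its 50-base stretches, 50.1% occur in other genes, among them the pseudogene Gm5844, listed at 7.86 to 17.1 rpkm.

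Hsp90ab1, at chr17:45567775-45573271 on the minus strand, was at 2013 and 1931 rpkm in +/+, 1707 and 2268 in flox/flox, and 1908 and 1902 in R270H/R270H. The flox/flox libraries were the lowest and the highest of the 6. Its 3 fitted differences were -0.05, -0.00 and -0.05, each with a standard error of 0.18 (adjusted p = 0.885, 0.996 and 0.862). The sum of both Hsp90 genes was 2457 and 2368 rpkm in +/+, 2221 and 2882 in flox/flox, and 2509 and 2454 in R270H/R270H. Within that sum Hsp90aa1 made up 18.1% and 18.5% in +/+, 23.1% and 21.3% in flox/flox, and 24.0% and 22.5% in R270H/R270H, so its share was lowest in the +/+ pair. With 2 libraries against 2, an exact permutation test of such a share cannot give a two-sided p below 0.333.

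Hsf1, the master regulator of the heat shock response, lies at chr15:76477422-76501913 on the plus strand. Its mRNA was at 14.8 and 12.9 rpkm in +/+, 20.9 and 17.3 in flox/flox, and 13.3 and 15.6 in R270H/R270H. The +/+ and R270H/R270H libraries overlapped and flox/flox was above both, but no difference was called (0.06 ± 0.15, 0.44 ± 0.15 and -0.38 ± 0.15 in the 3 comparisons, adjusted p = 0.826, 0.111 and 0.117). Hsf1 activity depends largely on the protein's trimerization and phosphorylation, which mRNA levels do not show. Hspb1 (Hsp27), a small heat shock protein that holds unfolded proteins, lies at chr5:135887919-135889563 on the plus strand. It was at 1.00 and 1.53 rpkm in +/+, 1.72 and 4.05 in flox/flox, and 3.64 and 4.51 in R270H/R270H. It passed the filter in 1 library each of flox/flox and R270H/R270H, and +/+ was lowest. R270H/R270H against +/+ gave a log2 fold change of 1.17 ± 0.33 (adjusted p = 0.0808), flox/flox against +/+ 0.72 ± 0.33 (adjusted p = 0.188), and R270H/R270H against flox/flox 0.45 ± 0.33 (adjusted p = 0.338).

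Leaving out Hspa1b, whose place was fixed by the filter, the flox/flox pair lay above the other 4 libraries in 5 of the 8 other tested chaperone genes (Hsf1, Hspa8, Hsph1, Dnajb1 and Stub1), against 19.9% of all tested genes. The R270H/R270H pair lay below the other 4 in 3 of 8 (Hspa8, Dnajb1 and Stub1), against 18.7%, and the +/+ pair lay below in 3 of 8 (Hsp90aa1, Hspb1 and Hsph1), against 15.6%. Hspb1 reached the filter only outside +/+, so its place in this last count was partly set by the filter. The other genes that moved with flox/flox were looked at on the same scale. The summed level of 10 immediate early genes, which are induced by growth factors and by handling of cells, was 85.5 and 74.5 rpkm in +/+, 107 and 156 in flox/flox, and 49.6 and 63.2 in R270H/R270H, with Fosb at the lowest value throughout. The sum was thus highest in flox/flox and lowest in R270H/R270H, as were Hspa8, Dnajb1 and Stub1. Single genes of the list did not all follow it. Of 9 tested, 7 had a fitted difference above 0 in flox/flox against +/+, and 7 below 0 in R270H/R270H against +/+. In flox/flox replicate 1, Fos (3.32 rpkm), Egr1 (7.95) and Nr4a1 (2.20) lay below both +/+ libraries (5.62 and 5.63, 11.2 and 10.9, and 4.59 and 4.95).

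In what follows, a signed value before an adjusted p is the log2 fold change of (rpkm + 1) from limma. Of the 9 immediate early genes tested, Atf3 was higher than in +/+ in both R270H/R270H (0.79, adjusted p = 0.0462) and flox/flox (1.16, adjusted p = 0.0238). Jun (-1.03, adjusted p = 0.0334), Junb (-2.53, adjusted p = 0.0117) and Ier2 (-1.71, adjusted p = 0.0177) were lower in R270H/R270H than in flox/flox. The 8 epithelial markers summed to 2920 and 2864 rpkm in +/+, 4557 and 4228 in flox/flox, and 2327 and 2506 in R270H/R270H, the same order of genotypes. Not every marker followed the sum. Fitted differences were above 0 for all 8 in flox/flox against +/+, and below 0 for 7 of 8 in R270H/R270H against +/+. The exception was Epcam, at 306 and 280 rpkm in +/+ and 330 and 351 in R270H/R270H. For Vil1 and Cdh1 the flox/flox libraries spanned those of +/+. Among these markers the keratins Krt8 (0.70, adjusted p = 0.0329) and Krt19 (0.84, adjusted p = 0.0411) were higher in flox/flox than in +/+. Krt19 was lower in R270H/R270H than in +/+ (-0.78, adjusted p = 0.0469), and Krt8, Krt18, Krt19 and Cldn7 were lower in R270H/R270H than in flox/flox (-0.93, -0.80, -1.62 and -1.03). The part of either list in the chaperone differences was not tested, and in bulk RNA fewer cells of a kind and less RNA per cell cannot be told apart.

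Of the other markers, Cd68 was at 10.2 and 9.87 rpkm in +/+, 2.06 and 11.1 in flox/flox, and 2.22 and 2.41 in R270H/R270H. The endothelial cadherin gene Cdh5 was at 8.88 and 9.35, 1.00 and 3.30, and 1.04 and 1.00 rpkm in the same order, lower than +/+ in R270H/R270H (-2.32, adjusted p = 0.0224) and in flox/flox (-1.79, adjusted p = 0.0411). Since Cdh5 reached the filter in +/+ alone, it could hardly enter the tests without such a difference. Fibroblast and muscle markers summed to 20.2 rpkm in flox/flox replicate 2 and to at most 8.59 in the other 5 libraries, where 8 is the lowest sum that 8 genes can have. The part of these 3 lists in the chaperone differences was not tested.

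**Figure D3:**
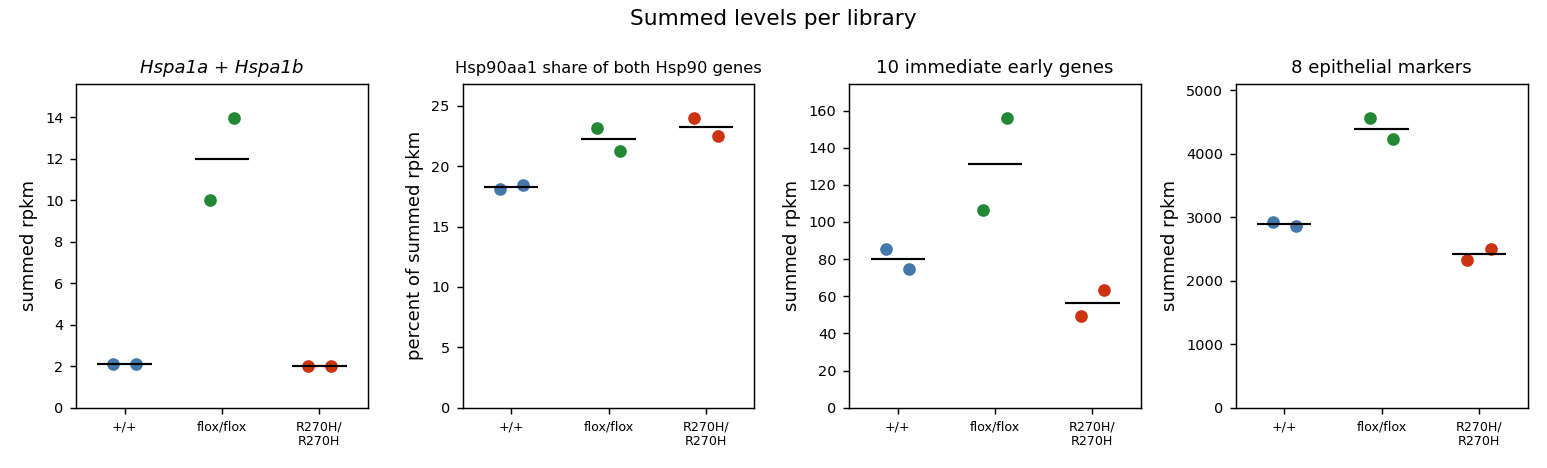
Summed rpkm (y axes, from 0) of Hspa1a and Hspa1b, of 10 immediate early genes and of 8 epithelial markers, and the percentage of the summed Hsp90aa1 and Hsp90ab1 rpkm that was Hsp90aa1, in the 2 libraries of each Trp53 genotype (points; bars are means). The flox/flox libraries are highest in the 3 sums, whereas the Hsp90aa1 share is lowest in the 2 +/+ libraries.

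The wider chaperone network was read from 7 lists with 77 rows in the table, of which 64 were tested. In R270H/R270H against +/+, 5 of 64 were called (7.81%, against 12.2% of all tested genes), 2 higher and 3 lower. In flox/flox against +/+ there were 6 (9.38%, against 11.3%), 4 higher and 2 lower, and in R270H/R270H against flox/flox there were 14 (21.9%, against 24.6%), 6 higher and 8 lower. These shares were near or below those of all tested genes, and the median log2 fold changes were 0.06, 0.11 and -0.11.

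Among 16 co-chaperones of Hsp90, Stip1 and Nudc were higher in flox/flox than in +/+. Stip1 (Hop), the adaptor that joins Hsp70 to Hsp90, was at 86.7 and 89.0, 128 and 126, and 113 and 106 rpkm in +/+, flox/flox and R270H/R270H (0.52 ± 0.09, adjusted p = 0.0331). Nudc, a dynein-linked co-chaperone, was at 90.7 and 87.2, 173 and 145, and 86.1 and 97.2 rpkm in the same order (0.83 ± 0.13, adjusted p = 0.0271). Of these 2, Stip1 lay above +/+ in both mutant genotypes, whereas Nudc stood apart in flox/flox. In R270H/R270H against flox/flox, Nudc (-0.79, adjusted p = 0.0178), the kinase adaptor Cdc37 (-0.71, adjusted p = 0.0223) and the activator of the Hsp90 ATPase Ahsa1 (-0.63, adjusted p = 0.0359) were lower, and Cdc37l1 (0.76, adjusted p = 0.0307) was higher. The fifth gene called there, Ttc4 (0.46, adjusted p = 0.0256), was higher and fell outside the rule for named genes. It is given after its value was seen.

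Among 15 co-chaperones of Hsp70, Bag3, a stress-inducible nucleotide exchange factor that steers clients to autophagy, was the gene called higher in flox/flox than in +/+. It was at 7.85 and 8.44 rpkm in +/+, 16.8 and 19.3 in flox/flox, and 10.5 and 11.3 in R270H/R270H (1.06 ± 0.12, adjusted p = 0.0134), with no overlap between genotypes. Bag3 was also lower in R270H/R270H than in flox/flox (-0.68, adjusted p = 0.0193), as were Bag2 (-1.08, adjusted p = 0.0223), known as an inhibitor of Chip, and the Hsp70 nucleotide exchange factor Hspbp1 (-1.81, adjusted p = 0.0190). Hspbp1, the largest of these differences, was at 16.3 and 12.6, 34.2 and 23.5, and 5.50 and 9.76 rpkm in +/+, flox/flox and R270H/R270H. The J-domain gene Dnajb5 went the other way, at 3.78 and 3.27, 2.99 and 2.66, and 6.00 and 6.72 rpkm. It was highest in R270H/R270H, against both +/+ (0.70, adjusted p = 0.0376) and flox/flox (0.94, adjusted p = 0.0141). Dnajb5 reached the filter in R270H/R270H alone, so its place was partly set by the filter.

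Of the other Hsp70 and Hsp90 family genes, 9 of 13 were tested. The mitochondrial chaperones Hspa9 (mortalin, -0.51, adjusted p = 0.0473) and Trap1 (-0.59, adjusted p = 0.0244) were lower in R270H/R270H than in +/+. Trap1 was at 93.7 and 99.9, 70.7 and 72.4, and 61.9 and 66.0 rpkm, and Hspa9 at 402 and 416, 307 and 334, and 297 and 275 rpkm, in +/+, flox/flox and R270H/R270H. For both genes +/+ was highest with no overlap. Hspa14 was higher in flox/flox than in +/+ (0.53, adjusted p = 0.0430). None of the 3 tested genes among 8 other small heat shock protein genes passed limma's adjusted threshold, and at an unadjusted p under 0.05 only Hspb6 did, in both comparisons with flox/flox (unadjusted p = 0.0344 and 0.0136 in the fit over all genes). In these comparisons 34.7% and 42.5% of all tested genes had an unadjusted p under 0.05.

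Neither of the 2 tested genes, Hsf2 and Hsbp1, among 5 other heat shock factors and their binding protein passed in any comparison with limma, 0 of them also at an unadjusted p under 0.05. Of 11 tested chaperonin rows, Cct4 (-0.49, adjusted p = 0.0313), a subunit of the cytosolic TRiC ring, and Hspe1 (-1.07, adjusted p = 0.0367), the mitochondrial Hsp10, were lower in R270H/R270H than in flox/flox. Hspe1 was at 137 and 129, 305 and 194, and 102 and 131 rpkm, highest in flox/flox with overlap between the other genotypes.

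The last list held 8 genes for ligases, deubiquitinases and a deacetylase that act on p53 or on Hsp90. Mdm2, the ligase that degrades p53 and is itself a p53 target, was at 40.5 and 44.2 rpkm in +/+, 14.4 and 16.9 in flox/flox, and 23.0 and 22.5 in R270H/R270H. It was lower than in +/+ in both flox/flox (-1.38 ± 0.12, adjusted p = 0.00794) and R270H/R270H (-0.87 ± 0.12, adjusted p = 0.0156), and higher in R270H/R270H than in flox/flox (0.51 ± 0.12, adjusted p = 0.0348). The 3 genotypes were thus apart for Mdm2, in another order than for Stub1. Trim24, a further ligase for p53, was at 21.8 and 20.8, 13.9 and 15.3, and 31.8 and 29.1 rpkm in +/+, flox/flox and R270H/R270H. It was called higher in R270H/R270H than in +/+ (0.50, adjusted p = 0.0444) and than in flox/flox (1.01, adjusted p = 0.00649), and lower in flox/flox than in +/+ (-0.52, adjusted p = 0.0419). Hdac6, the deacetylase that acts on Hsp90, was at 6.46 and 6.02, 4.65 and 5.85, and 7.77 and 8.39 rpkm. It was highest in R270H/R270H, and was called against flox/flox (0.54 ± 0.14, adjusted p = 0.0461) but not against +/+ (0.33 ± 0.14, adjusted p = 0.185).

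**Figure D4:**
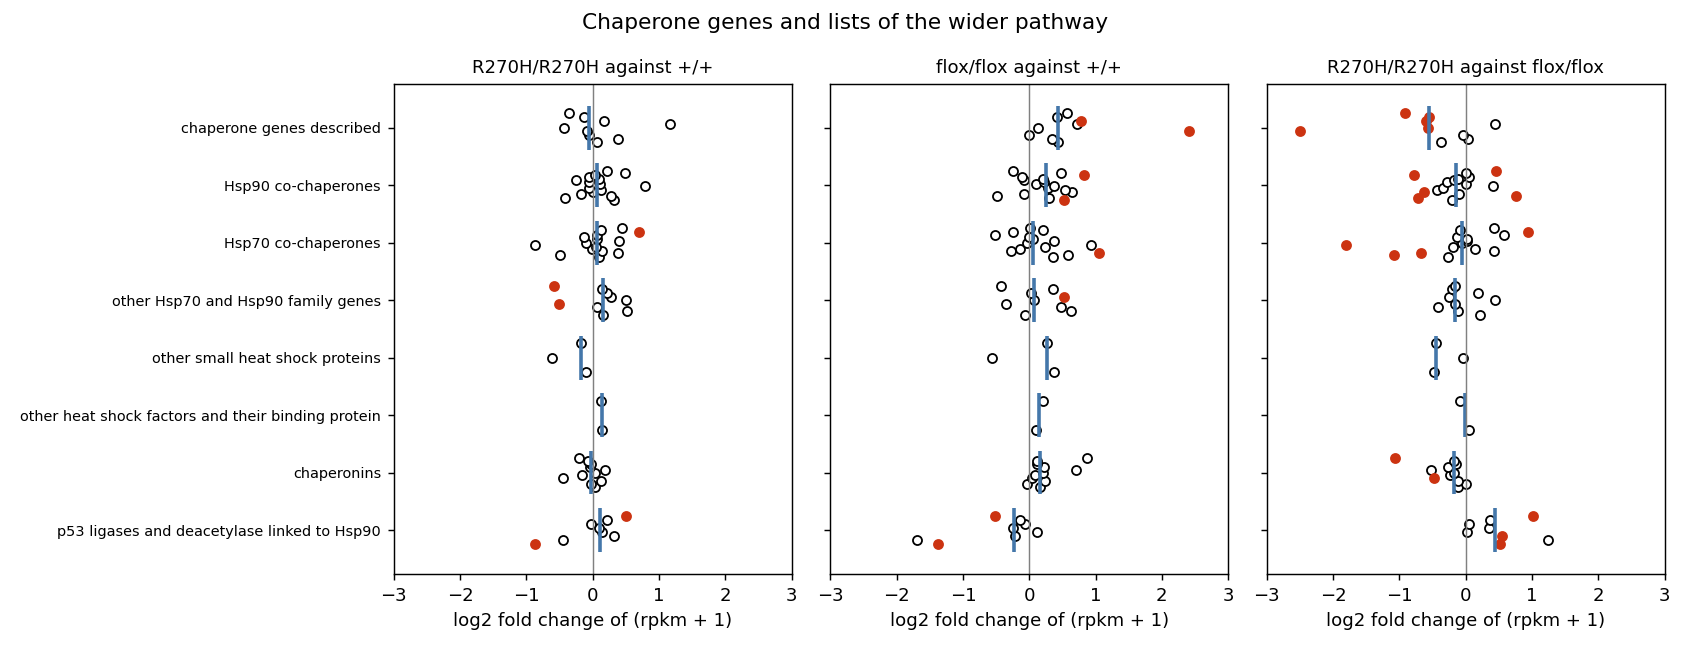
Log2 fold change of (rpkm + 1) (x axes) of every tested gene in the 10 chaperone genes and in 7 lists of the wider network (y axis) for the 3 comparisons of Trp53 genotypes. Filled red points have an adjusted p under 0.05 and blue bars are list medians. The chaperone genes have a median of 0.44 in flox/flox against +/+ and -0.55 in R270H/R270H against flox/flox, while the 64 network rows have medians of 0.11 and -0.11.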

How the data were processed

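According to the study's methods, poly(A) RNA was made into libraries with a stranded mRNA kit and sequenced on an Illumina HiSeq, and the authors then aligned them to mm10 and had StrandNGS compute RPKM values. The deposited table holds these RPKM values (36172 rows, 6 libraries). The gene annotation, the software version, and how reads with more than 1 match were treated are not given in the sources used here. No value lies below 1, and 23760 rows are at 1 in all libraries, so lower values are unknown. Library depth is not stated. From the step that 1 read makes in RNA genes shorter than 230 bases, it was estimated at 44200000 to 47200000 reads in 5 libraries, and not in flox/flox replicate 1, where too few such genes were found. Depth limits counting error only.

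Genes that reached 4 RPKM in any library were kept, after the cut that the study's methods give for clustering (there by genotype), and were fitted as log2(RPKM + 1) with limma 3.58.1 (R 4.3.3; lmFit, eBayes with trend) on all 6 libraries, with genotype as the factor. P-values are two-sided, with Benjamini-Hochberg adjustment over all 10042 tested genes and a threshold of 0.05, and ± after a log2 fold change is the standard error. No set test was run. Gene positions are from GENCODE M21 on GRCm38, the assembly that mm10 names, and motifs were searched with Python 3.11.15.

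The chaperone genes and all lists were chosen with earlier results of these data known. The genes named are all 10 chaperone genes, Trp53, Hdac6, at most 4 called genes per list and comparison with the largest differences, and the 5 genes most like Hsp90aa1. Of these 5 and of the blood markers, 1 gene each is not reported here. Groups are those of the labels. Replicate numbers were tried as a block although they mark different mice. Alternatives were the filter, the pseudocount, 2 scalings, the variance model, the libraries fitted, centring by chromosome, the sum of Hspa1a and Hspa1b, and leaving out each library.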

Additional observations from a re-analysis of the deposited data

How the results depend on the processing

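Over 19 alternatives, 9 of 510 recomputed fold changes of the chaperone genes turned sign, none of them among the 7 called values. The medians over the chaperone genes moved in no case by more than the replicate spread. Calls depended on how the spread was estimated. With a spread per genotype the chaperone genes called were 4, 1 and 1 and the network genes 27, 1 and 2 (R270H/R270H against +/+, flox/flox against +/+, R270H/R270H against flox/flox), where 59.6%, 1.49% and 5.32% of all tested genes were called. With only the 2 genotypes compared they were 4, 0 and 1 and 26, 0 and 1 (57%, 0.468% and 3.76% of all tested genes). Leaving out 1 library, where the lone sample is assumed to vary like the others, gave 0 to 4, 0 to 5 and 1 to 7 chaperone genes and 0 to 26, 0 to 45 and 0 to 45 network genes, while the share of all tested genes moved from 0% to 57.8%, 0.08% to 69.3% and 1.65% to 72.8%. The cause was not tested beyond the replicate spreads given with the results.

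Replicate numbers mark different mice, and same-numbered deviations correlated at 0.117 (+/+ with flox/flox), -0.291 (+/+ with R270H/R270H) and -0.196 (flox/flox with R270H/R270H). With 2 libraries a genotype these deviations mirror each other, so exchanging the numbers of a genotype only turns the sign. The values therefore cannot decide whether libraries were paired. With the replicate number as a block, 1 and 2 chaperone genes were called in the comparisons with flox/flox, and 1, 2 and 6 network genes in the 3 comparisons (5.48%, 2.79% and 11.5% of all tested genes). With the R270H/R270H numbers exchanged, a pairing chosen after seeing the data, there were 1 and 3 chaperone genes and, in R270H/R270H against +/+, 3 network genes (8.69%, 22.7% and 9.37% of all tested genes in these comparisons).

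Signs that turned were of values near 0. With median-of-ratios scaling Ahsa1 in R270H/R270H against +/+ was -0.0093 and Cct4 in flox/flox against +/+ -0.0023, with upper-quartile scaling Cct4 was -0.013, and centred by chromosome they were -0.0048 and -0.012, while R270H/R270H against flox/flox gave -0.038 for Hsp90aa1 and 0.011 for Hsp90ab1. Leaving out 1 library gave, in R270H/R270H against +/+, -0.34 to 0.10 for Jun, -0.050 to 0.17 for Hsf1, -0.045 to 0.14 for Trp53, -0.045 to 0.13 for Nudc and -0.055 to 0.078 for Ahsa1. It gave -0.21 to 0.20 for Hsp90ab1 and -0.038 to 0.11 for Cct4 in flox/flox against +/+, and -0.092 to 0.16 for Hsp90aa1 and -0.25 to 0.16 for Hsp90ab1 in R270H/R270H against flox/flox. Genes at or below 1 RPKM, such as Hspa1a outside flox/flox, cannot be compared.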

Other observations

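The 4 genes outside the chaperone set whose levels over the 6 libraries were most like those of Hsp90aa1 were Kpnb1, Vcp, Agpat6 and Slc4a1ap, with Pearson r of 0.997, 0.995, 0.994 and 0.987 on the log2(rpkm + 1) scale. The 6 libraries are 3 pairs, and 40 of the tested genes reached an r of 0.95, so the likeness is a description of a shared order of libraries. Vcp, the AAA ATPase that extracts ubiquitinated proteins for degradation, was at 226 and 223 rpkm in +/+, 245 and 266 in flox/flox, and 264 and 248 in R270H/R270H. Kpnb1, the nuclear import receptor importin beta, was at 116 and 117, 136 and 160, and 159 and 146 rpkm in the same order. In both genes, as in Hsp90aa1, the +/+ pair was lowest and the other genotypes overlapped.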
